A study of Oryctolagus cuniculus with 24 samples.

Results

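The genes described here are those whose level in rabbit peripheral blood mononuclear cells (PBMCs) was higher after 4 h (T4) of PMA-Ionomycin stimulation than in mock-stimulated cells, and lower than in mock-stimulated cells after 24 h (T24). A gene was taken when the mean with PMA-Ionomycin was at least 0.7 above the mock mean at T4 and at least 0.7 below it at T24, on a log2 scale on which the median spot of each array is 0. Genes without a symbol and 9 families of symbols (SLC, CTS, ATP6, IL, CCL, CXCL, DUSP, HSP and DNAJ) were left out. Of 28895 genes measured, 9494 had a symbol. The rule was met by 82 of the 9093 genes with a symbol outside these families. Which genes met it depended on the processing, since 222 did with the scanner's processed signal (73 of the 82 among them) and 60 with normexp background correction and quantile normalization (49 among them). Before the families were removed it was met by 92 genes, and the 10 removed were ATP6V0D2, ATP6V1C1, CTSB, CXCL8, DUSP1, IL6ST, SLC23A2, SLC3A2, SLC7A7 and SLC8B1.

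PBMCs were prepared on a density gradient from the blood of 4 New Zealand White rabbits, adult females that carry the numbers 1, 2, 4 and 5, and were cultured in serum-containing RPMI medium for 4 or 24 h. They were mock-stimulated, stimulated with LPS, a component of the outer membrane of Gram-negative bacteria, at 1 µg/mL, or stimulated with PMA at 10 ng/mL together with ionomycin at 1 µg/mL. Each of the 6 groups held 1 culture of every rabbit, and the 24 cultures were hybridised to one-colour Agilent arrays. Values in every group are given below in the order of rabbits 1, 2, 4 and 5, and a log2 level is relative to the median spot of its own array, so that levels of different genes cannot be ranked against each other.

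PMA is a phorbol ester that stands in for diacylglycerol and activates protein kinase C, and ionomycin carries calcium ions into the cell. Together they switch on immediate early transcription factors and NF-kappaB within hours, and many of the transcripts raised in this way encode inhibitors of the same pathways or are short-lived. Lysosomes, which hold the acid hydrolases of the cell, are abundant in monocytes and macrophages, the PBMC subset that responds most directly to LPS. Since the arrays measured bulk cultures, fewer cells of a type and less RNA per cell cannot be told apart.

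Each level was read from 60-base probes, and 50 of the 82 genes had a single probe. The probes of JUN and NFKBIZ, both single, are shown because the values of these genes, which recur below, rest on 1 sequence each. The JUN probe lies on chr13:107997091-107997150 (plus strand, oryCun2) and that of NFKBIZ between chr14:118681783-118681959 (minus strand), and no letters are in capitals.
JUN: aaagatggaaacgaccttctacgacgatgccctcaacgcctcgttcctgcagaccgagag
NFKBIZ: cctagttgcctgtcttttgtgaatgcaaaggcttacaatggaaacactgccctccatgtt

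Of the 32 genes with more than 1 probe, 31 had every probe higher at T4 and lower at T24. Several probes of a gene were not always independent. The 5 NPC1 probes lie between 64722043 and 64722116 on the minus strand of chromosome 9 and share 46 bases, in capitals in the first and the last of them below, so that they amount to repeated readings of 1 site.
NPC1 probe 1, chr9:64722043-64722102: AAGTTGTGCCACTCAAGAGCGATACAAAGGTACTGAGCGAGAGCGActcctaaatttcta
NPC1 probe 5, chr9:64722057-64722116: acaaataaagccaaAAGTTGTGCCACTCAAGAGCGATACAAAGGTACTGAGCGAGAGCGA

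The exception was ARL6IP1, which encodes an endoplasmic reticulum membrane protein. Its first probe lies between chr6:9231584-9235138 and its other probe on chr6:9246881-9246940, both on the plus strand, and no letters are in capitals.
ARL6IP1 probe 1: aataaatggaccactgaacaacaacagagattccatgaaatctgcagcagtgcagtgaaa
ARL6IP1 probe 2: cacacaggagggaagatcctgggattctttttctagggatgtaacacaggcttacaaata
The first ARL6IP1 probe was 1.33 higher with PMA-Ionomycin than with mock at T4 and -2.06 relative to mock at T24. For the other probe the values were 0.17 and 0.38. The mean over both thus met the rule through the first probe alone, and the gene is given with this limit.

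The genes were chosen by their mean PMA-Ionomycin and mock levels at T4 and T24, so these values are a description and carry no test. At T4 the 82 differences (PMA-Ionomycin minus mock, log2) ran from 0.70 to 2.46 with a median of 1.01, and at T24 from -3.40 to -0.71 with a median of -1.15. The arrays of both groups did not overlap for 52 genes at T4 and for 67 at T24, and for 46 at both times. Over all genes with a symbol, 13.3% were higher without overlap at T4 and 15.5% lower without overlap at T24, shares from which nothing is read here because the rule used the same arrays. In 70 of the 82 genes all 4 rabbits were higher at T4 and lower at T24. On all 24 arrays 68 genes had a probe well above background, and no low-signal filter was applied, so all 82 are described. The other 14 were not above it on every array, which makes the size of their differences less certain. Of these, RPS6KA3 and TIAM1 were above background on 1 array with PMA-Ionomycin at T24 and PPFIBP1 on 2, and CIART on 3 mock arrays at T4. SEMA3C, a secreted guidance cue, and HES1, a transcriptional repressor of the Notch pathway, had no array above background with PMA-Ionomycin at T24 and were there at least 1.71-fold and at least 1.63-fold lower than with mock.

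**Figure D1:**
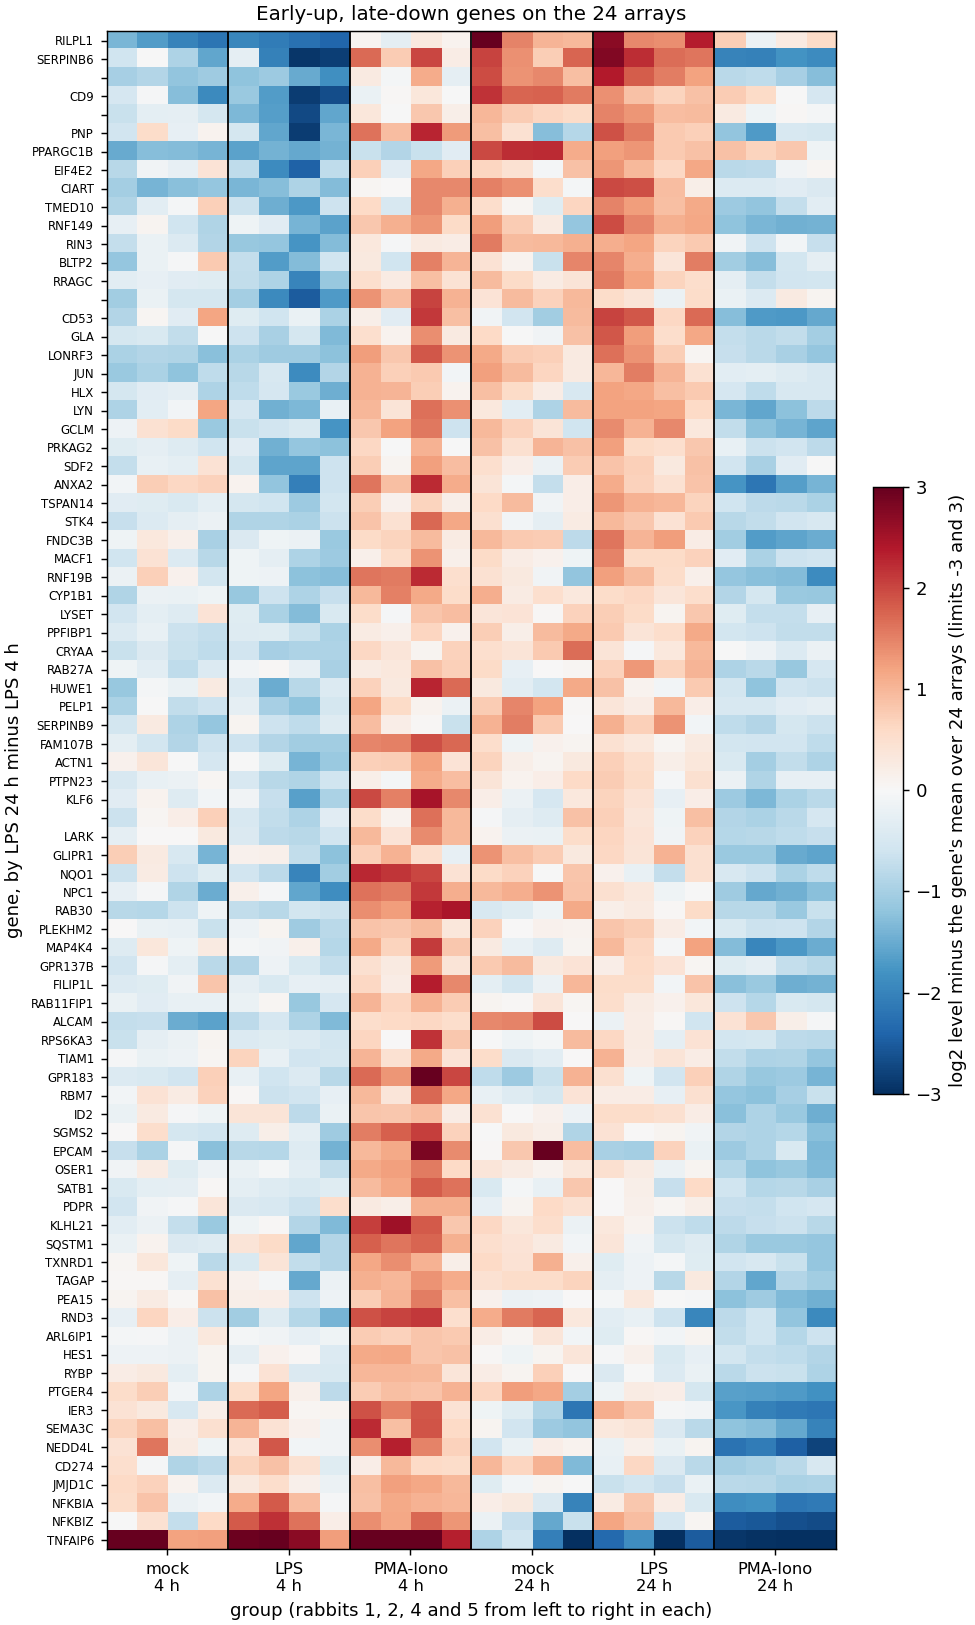
Log2 level of each of the 82 genes (rows) on the 24 arrays (columns, rabbits 1, 2, 4 and 5 in each group) minus the mean of the gene over all arrays, with colours limited to -3 and 3. Rows are ordered by the change between LPS 4 h and LPS 24 h. Most rows are red with PMA-Ionomycin at 4 h and blue at 24 h, and in the bottom row, TNFAIP6, the arrays of all groups are lower at 24 h than at 4 h.

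Just inside the T4 limit were BLTP2 (0.70), CD53 (0.70) and SERPINB9 (0.71), and just outside it LYST (0.699), BLVRA (0.69) and TGFBI (0.69). At T24 the genes just inside were PTPN23 (-0.71) and STK4 (-0.75), and those just outside ZFP36 (-0.698), USP36 (-0.69) and UBTD2 (-0.66). When the rule was applied to 3 rabbits at a time, it met 67, 99, 58 and 82 genes without rabbits 1, 2, 4 and 5. In the rabbit left out, 94.0%, 84.8%, 94.8% and 81.7% of these genes were higher at T4 and lower at T24, beside 21.0%, 13.1%, 22.7% and 18.9% of all genes with a symbol outside the families left out. Both limits of 0.7 were met in the rabbit left out by 62.7%, 29.3%, 69.0% and 29.3% of them, beside 1.67%, 0.473%, 1.37% and 0.891% of the same background.

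The mean level of the 82 genes summarises how both arms moved. With PMA-Ionomycin it was 3.68, 3.49, 4.12 and 3.46 at T4 and 1.93, 1.78, 1.83 and 1.77 at T24. In mock-stimulated cells it was 2.40, 2.72, 2.37 and 2.44 at T4 and 3.30, 3.09, 2.98 and 2.93 at T24. In all 4 rabbits the mock mean was higher and the PMA-Ionomycin mean lower at T24 than at T4. The rule used the same arrays and favours both movements, so these means are a description and nothing is read from them.

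**Figure D2:**
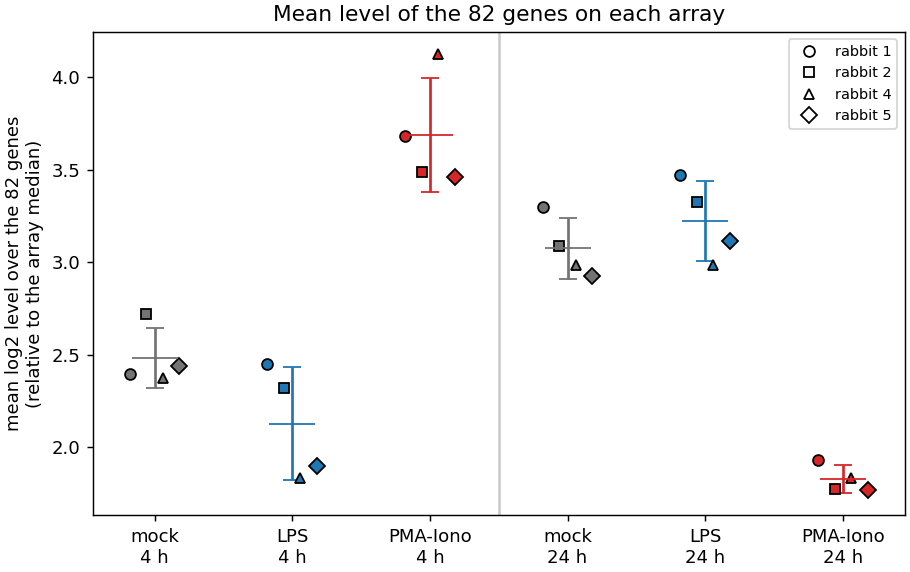
Mean log2 level of the 82 genes on each array (points, 1 symbol per rabbit), by group, with the mean and SD of each group as bars (n = 4). The PMA-Ionomycin arrays lie between 3.46 and 4.12 at 4 h and between 1.77 and 1.93 at 24 h, and the LPS arrays between 1.83 and 2.45 at 4 h and between 2.98 and 3.47 at 24 h.

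By gene, 63 of the 82 were lower at T24 than at T4 with PMA-Ionomycin and higher with mock in group means. The rule, which used the same arrays, sets the change with PMA-Ionomycin well below that with mock, so nothing is read from this count. Another 16 were lower at T24 in both arms, and 3 were higher at T24 in both. Those 3 were RILPL1, CD9 and PPARGC1B, for which the mock mean was higher by 3.42, 2.74 and 3.26 and the PMA-Ionomycin mean by 0.30, 0.16 and 1.20. The mock change was larger in size than the PMA-Ionomycin change in 14 genes. The median change from T4 to T24 was -1.73 with PMA-Ionomycin and 0.50 with mock, which follows in part from the choice of the genes.

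**Figure D3:**
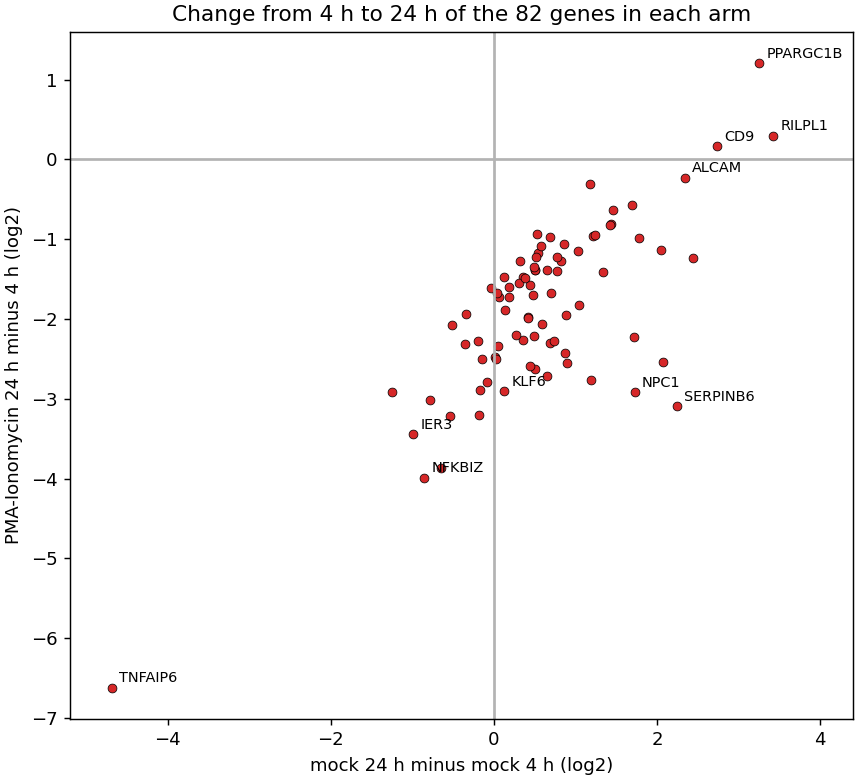
Change of each of the 82 genes from 4 h to 24 h in mock-stimulated cells (horizontal axis, log2) against the change with PMA-Ionomycin (vertical axis, log2), as differences of group means (n = 4). Of the points, 63 lie in the lower right quadrant, 16 in the lower left and 3 (RILPL1, CD9, PPARGC1B) in the upper right.

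EPCAM encodes an epithelial cell adhesion molecule. EPCAM levels at T4 were 1.31, 1.48, 3.16 and 1.76 with PMA-Ionomycin and -0.34, -0.60, 0.31 and -0.92 with mock. At T24 EPCAM measured -0.74, -0.59, -0.11 and -1.0 with PMA-Ionomycin and 0.39, 1.16, 3.95 and 1.27 with mock. The groups did not overlap at either time, but a probe of EPCAM was above background on only 2 mock arrays at T4 and on 1 PMA-Ionomycin array at T24, and rabbit 4 stood above the other rabbits with mock at T24. Differences of EPCAM from these groups, and its place among the 82 genes, are therefore uncertain.

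NPC1, the late endosomal and lysosomal membrane protein that exports cholesterol, measured 4.49, 4.4, 4.98 and 3.96 with PMA-Ionomycin and 2.63, 2.83, 1.97 and 1.37 with mock at T4. By T24 NPC1 was at 1.81, 1.32, 1.43 and 1.60 with PMA-Ionomycin and at 3.83, 3.95, 4.21 and 3.72 with mock. All PMA-Ionomycin arrays were above all mock arrays at T4 and below them at T24, by means of 2.26 and -2.39.

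GLA encodes alpha-galactosidase A, a lysosomal glycosidase. GLA measured 1.78, 1.38, 2.67 and 1.53 with PMA-Ionomycin and 0.74, 0.81, 0.53 and 1.25 with mock at T4, and the lowest treated array (1.38) was just above the highest mock array (1.25). GLA at T24 was 0.56, 0.45, 0.54 and 0.24 with PMA-Ionomycin and 1.86, 1.26, 1.17 and 2.15 with mock, again without overlap.

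The list of lysosomal enzymes and membrane proteins, of which 35 of 52 genes were measured, sets these genes beside the rest of the organelle. At T24, 34 of the 35 were called lower with PMA-Ionomycin than with mock (limma, adjusted p under 0.05), beside 11.5% of all genes. At T4 5 were called higher, beside 13.4% of all genes, and 8 lower, beside 9.33%. Another scaling (processed signal at the 75th percentile) changed these shares of all genes to 11.4% higher and 12.8% lower at T4, and from 22.1% higher and 11.5% lower to 16.2% and 18.8% at T24. The shares before this change (13.4% and 9.33% at T4, 22.1% and 11.5% at T24) also stand beside the counts of the other lists below. Those called higher at T4 included NPC1, GLA and CTSB, the last of which (cathepsin B) belongs to a family the rule left out. Median differences of the list were -0.13 at T4 and -1.69 at T24. LIPA, the acid lipase that frees cholesterol from lipoproteins, was at -1.53 at T4 and -4.12 at T24, and LAMP1, a main protein of the lysosomal membrane, at 0.00 and -1.94. Most of the list was thus lower at T24, and few of its genes were higher at T4. Without rabbit 4 the T4 count of genes called higher was 3, and the count called lower was 2 without rabbit 2 and 5 without rabbit 4. Outside that list, the rule also met LYSET (0.78 and -0.88), a Golgi protein needed for sorting enzymes to lysosomes, GPR137B (1.02 and -1.15), a lysosomal membrane protein, and PLEKHM2 (1.01 and -0.89), which links lysosomes to kinesin.

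Markers of monocytes and macrophages were mostly lower with PMA-Ionomycin at T24, as these genes were, and in part also at T4. Of 23 measured markers of that list, 18 were called lower with PMA-Ionomycin at T24 and 2 higher, and 10 were called lower at T4. Their mean level ran from 1.47 to 1.88 with PMA-Ionomycin and from 2.03 to 2.77 with mock at T4, and from 1.26 to 1.51 and from 2.83 to 3.59 at T24. CD14, the LPS co-receptor of monocytes, was at 4.18 to 4.67 with PMA-Ionomycin and at 6.92 to 8.06 with mock at T4, and at 4.73 to 6.29 and 7.93 to 9.28 at T24. Among the 23 markers, VSIG4 was above background on no array at T4, and VSIG4 and CLEC7A on none with PMA-Ionomycin at T24. Markers of some other cells also differed with PMA-Ionomycin. At T4, 7 of 8 platelet markers and 6 of 10 B cell markers were called lower, and at T24 5 of 9 neutrophil markers and 5 of 10 B cell markers were called lower and 3 of 3 NK cell markers higher. Most T cell markers were not called (12 of 15 at T4 and 11 at T24), nor were most erythroid markers (6 of 6 at T4 and 5 at T24). At T24, 7 of the 8 platelet markers were not called. None of the 82 genes is on a marker list. The part of these cell types in the levels of the 82 genes was not tested.

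**Figure D4:**
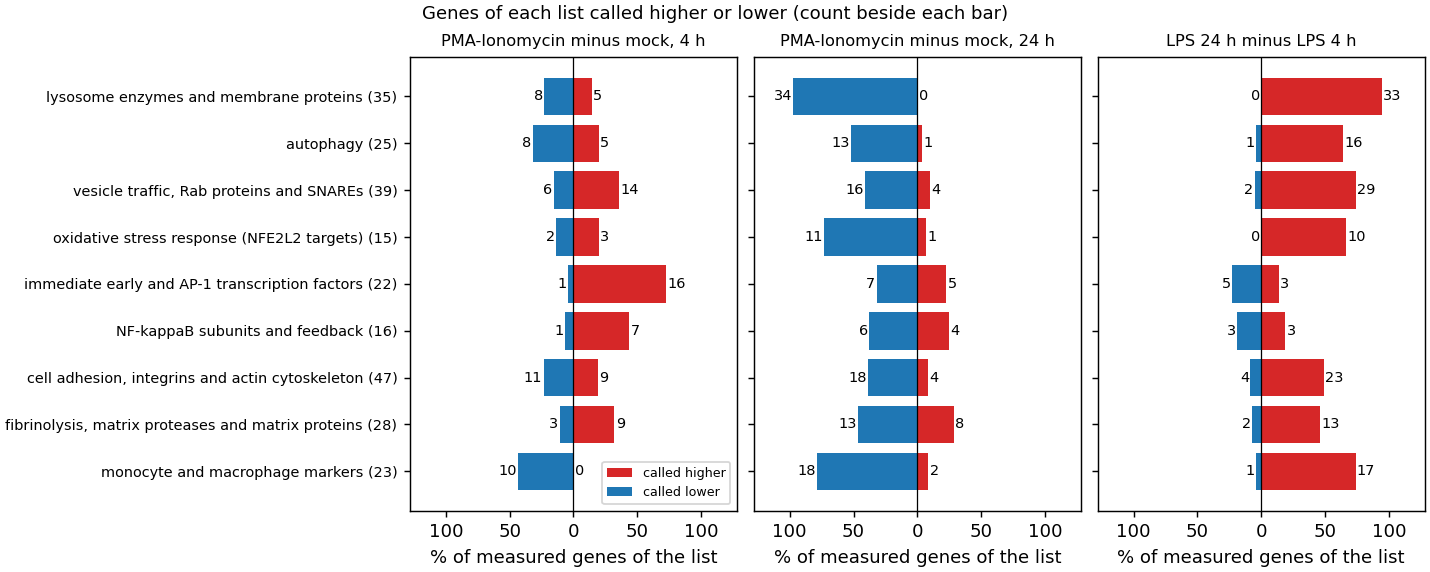
Percent of the measured genes of each list (number in brackets) called higher (red, to the right) or lower (blue, to the left) by limma at an adjusted p under 0.05, with counts beside the bars, for PMA-Ionomycin minus mock at 4 h and 24 h and for LPS 24 h minus LPS 4 h. The lysosome list has 5 higher and 8 lower at 4 h, 34 lower at 24 h and 33 higher between the LPS times.

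Autophagy and nutrient sensing gave a pair of genes. SQSTM1 encodes p62, the adaptor that delivers ubiquitinated cargo to autophagosomes. SQSTM1 was at 4.14, 3.96, 4.11 and 3.42 with PMA-Ionomycin and 2.15, 2.47, 1.92 and 1.96 with mock at T4, and at T24 at 1.46, 1.25, 1.23 and 1.20 and 2.86, 2.76, 2.63 and 2.26. RRAGC, a Rag GTPase that recruits mTORC1 to lysosomes, was at 2.70, 2.45, 3.1 and 2.63 with PMA-Ionomycin and 1.88, 1.94, 1.86 and 1.83 with mock at T4. RRAGC at T24 measured 1.92, 1.48, 1.62 and 1.65 with PMA-Ionomycin and 3.15, 2.77, 2.44 and 2.58 with mock. Neither gene overlapped between the groups at either time. Of 25 measured autophagy genes, 5 were called higher and 8 lower at T4, and 1 higher and 13 lower at T24.

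Redox genes controlled by NFE2L2 were led by NQO1, a quinone reductase. NQO1 at T4 was 6.03, 5.90, 5.75 and 4.19 with PMA-Ionomycin, where rabbit 5 was far below the others, and 3.11, 4.01, 3.12 and 3.38 with mock. NQO1 at T24 was 3.27, 3.12, 2.80 and 3.0 with PMA-Ionomycin and 4.34, 4.44, 3.74 and 4.59 with mock. TXNRD1, thioredoxin reductase, measured 7.05, 7.28, 6.94 and 6.08 with PMA-Ionomycin and 5.96, 6.23, 5.77 and 5.08 with mock at T4, so that the groups overlapped through rabbit 5, although each rabbit was higher than its own mock culture. TXNRD1 then lay at 5.32, 5.41, 5.22 and 4.74 and 6.5, 6.33, 6.97 and 6.04 at T24, without overlap. GCLM, the modifier subunit of the enzyme that starts glutathione synthesis, was at 4.61, 5.00, 5.39 and 3.19 with PMA-Ionomycin and 3.64, 4.26, 4.37 and 2.68 with mock at T4. Rabbit 5 was again the lowest of both groups, and the T4 groups overlapped. GCLM at T24 measured 3.07, 2.56, 2.40 and 2.23 with PMA-Ionomycin and 4.78, 4.50, 4.18 and 3.19 with mock. Among 15 measured NFE2L2 targets, 3 were called higher and 2 lower at T4, and 1 higher and 11 lower at T24. OSER1, an oxidative stress responsive gene on none of the lists, differed by 1.23 and -1.39.

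Of the immediate early list, 16 of 22 measured genes were called higher at T4 and 1 lower, and JUN, KLF6 and IER3 were among the 82 genes. JUN is a subunit of the AP-1 transcription factor. JUN at T4 was 4.26, 3.95, 4.02 and 3.14 with PMA-Ionomycin and 2.12, 2.29, 2.02 and 2.47 with mock, and at T24 2.91, 2.94, 2.85 and 2.74 and 4.45, 4.18, 3.88 and 3.49. The mock mean was 1.78 higher at T24 than at T4, and the groups did not overlap at either time. KLF6, a zinc finger transcription factor, measured 5.35, 4.90, 5.85 and 4.82 with PMA-Ionomycin and 3.03, 3.49, 3.0 and 3.31 with mock at T4. KLF6 was at 2.28, 2.03, 2.43 and 2.56 with PMA-Ionomycin at T24, with 3.58, 3.19, 2.86 and 3.70 in mock, so that nearly all of its turn lay in the PMA-Ionomycin arm. IER3, a stress-inducible survival gene, was at 6.83, 6.44, 6.79 and 5.37 with PMA-Ionomycin and 5.37, 5.22, 4.44 and 5.11 with mock at T4. IER3 at T24 was 3.19, 2.90, 2.81 and 2.77 and 4.81, 4.57, 4.04 and 2.76, with overlap at both times because of rabbit 5. At T24, 5 of the 22 were called higher and 7 lower, with a median difference of -0.05. FOS (1.81 at T4 and 0.17 at T24), EGR1 (2.33 and 0.10) and NR4A2 (4.30 and 2.17), named after their values were seen, were among those not below mock at T24.

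From the NF-kappaB list the rule met NFKBIZ and NFKBIA, both of which encode inhibitor of NF-kappaB family proteins. NFKBIZ measured 5.06, 4.81, 5.38 and 4.99 with PMA-Ionomycin and 3.65, 4.12, 2.94 and 4.25 with mock at T4. With PMA-Ionomycin at T24 NFKBIZ was at 1.16, 1.12, 1.01 and 0.98, and with mock at 3.47, 2.96, 2.13 and 2.98. Its 4 treated arrays at T24 lay close together, below every mock array. NFKBIA reached 10.77, 11.03, 10.93 and 10.89 with PMA-Ionomycin and 10.43, 10.75, 9.72 and 9.80 with mock at T4. NFKBIA at T24 was at 8.02, 8.05, 7.72 and 7.75 with PMA-Ionomycin and at 10.08, 10.17, 9.45 and 7.88 with mock, where rabbit 5 was far below the other rabbits and overlapped the treated arrays. Of the 16 measured genes of the list, 7 were called higher at T4 and 1 lower, and 4 higher and 6 lower at T24. The subunits REL (1.15 and 1.01) and NFKB1 (1.37 and 0.68) stayed on the positive side at both times.

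Ubiquitin ligases and their adaptors made up 6 of the 82 genes. This grouping and the other groupings by role, apart from the lists, were made after the values were seen and carry no test. LONRF3, a RING finger protein, was at 3.08, 2.66, 3.71 and 3.18 with PMA-Ionomycin and 0.89, 0.96, 0.93 and 0.58 with mock at T4. LONRF3 at T24 was 1.15, 1.03, 0.86 and 0.67 with PMA-Ionomycin and 2.99, 2.60, 2.56 and 2.10 with mock. The treated arrays at T24 were close to the mock arrays at T4. RNF149, a membrane-bound RING finger ligase, measured 3.04, 3.28, 3.55 and 2.79 with PMA-Ionomycin and 1.98, 2.30, 1.63 and 1.32 with mock at T4. RNF149 at T24 measured 1.01, 0.84, 0.78 and 0.81 with PMA-Ionomycin and 3.47, 2.98, 2.5 and 1.05 with mock, with the mock array of rabbit 5 only just above the treated arrays. RNF19B, a ligase known from natural killer cells, was at 5.20, 5.17, 5.83 and 4.12 with PMA-Ionomycin and 3.44, 4.33, 3.74 and 3.06 with mock at T4. RNF19B at T24 was 2.43, 2.34, 2.29 and 1.71 and 4.07, 3.90, 3.50 and 2.41, and the groups overlapped at both times. The other genes of this kind were KLHL21 (2.40 and -1.06), a cullin adaptor, HUWE1 (1.52 and -0.87) and NEDD4L (0.94 and -2.27).

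Inhibitors of proteases were represented by SERPINB6 and SERPINB9, intracellular serpins of which the latter inhibits granzyme B. SERPINB6 had the deepest T24 difference of all 82 genes and 5 probes, whose T24 differences ran from -3.71 to -3.19. The first of them is shown as the probe of the gene with that deepest difference, and the files give no position for it.
SERPINB6 probe 1: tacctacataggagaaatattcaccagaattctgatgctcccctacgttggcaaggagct
SERPINB6 measured 5.53, 4.59, 5.84 and 4.05 with PMA-Ionomycin and 3.23, 3.83, 2.91 and 2.26 with mock at T4. By T24 SERPINB6 stood at 1.82, 1.81, 2.05 and 1.96 with PMA-Ionomycin, whereas mock gave 5.86, 5.21, 4.58 and 5.58. The groups were apart at both times, 3.84-fold at T4 and 10.6-fold at T24. SERPINB9 was at 1.93, 1.19, 1.03 and 0.33 with PMA-Ionomycin and 0.45, 1.27, 0.07 and -0.17 with mock at T4, with rabbit 2 slightly lower than its mock culture. SERPINB9 at T24 was 0.25, 0.12, 0.46 and 0.36 with PMA-Ionomycin and 2.04, 2.52, 1.77 and 1.0 with mock, without overlap. Of 28 measured genes of fibrinolysis, proteases and matrix, 9 were called higher and 3 lower at T4, and 8 higher and 13 lower at T24.

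Adhesion and actin genes included RND3, a small GTPase that loosens stress fibres. RND3 was at 4.05, 4.18, 4.26 and 2.66 with PMA-Ionomycin and 1.90, 2.78, 2.35 and 1.5 with mock at T4, and overlapped through rabbit 5. RND3 at T24 was 1.36, 1.54, 0.97 and 0.24 with PMA-Ionomycin and 3.26, 3.71, 3.89 and 2.46 with mock. ACTN1, an actin crosslinker, measured 5.77, 5.79, 6.27 and 5.46 with PMA-Ionomycin and 5.19, 5.42, 5.06 and 4.55 with mock at T4. ACTN1 at T24 was 4.61, 4.03, 4.32 and 4.14 and 5.72, 5.24, 5.13 and 5.34, apart at both times. CD9, a tetraspanin, was at 4.89, 5.10, 5.41 and 5.06 with PMA-Ionomycin and 4.58, 5.04, 3.81 and 3.16 with mock at T4, where rabbits 1 and 2 differed from mock by 0.30 and 0.06 and rabbits 4 and 5 by 1.60 and 1.90. CD9 at T24 was 5.83, 5.66, 5.05 and 4.56 with PMA-Ionomycin and 7.24, 6.82, 6.84 and 6.64 with mock. Of the 47 measured genes of this list, 9 were called higher and 11 lower at T4, and 4 higher and 18 lower at T24. Further cytoskeletal members on none of the lists were MACF1 (0.90 and -0.82), FILIP1L (1.17 and -1.31) and PPFIBP1 (0.79 and -1.40).

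Vesicle traffic was the role of a further 10 genes. RAB27A, the GTPase that docks secretory lysosomes, measured 2.49, 2.56, 3.13 and 2.97 with PMA-Ionomycin and 2.12, 1.92, 1.48 and 1.83 with mock at T4. RAB27A at T24 was 1.33, 1.44, 1.11 and 1.74 and 2.82, 1.99, 2.26 and 2.29. RAB11FIP1, an effector of recycling endosomes, was at 3.41, 3.04, 3.45 and 3.16 with PMA-Ionomycin and 2.21, 2.06, 2.18 and 2.18 with mock at T4. RAB11FIP1 at T24 was 1.78, 1.55, 1.93 and 1.86 and 2.49, 2.43, 2.76 and 2.46. ANXA2, a calcium-dependent membrane-binding protein, measured 8.65, 7.95, 9.28 and 8.17 with PMA-Ionomycin and 6.97, 7.80, 7.67 and 7.73 with mock at T4. ANXA2 at T24 was 5.29, 4.89, 5.39 and 5.65 and 7.43, 7.0, 6.32 and 7.26. These 3 genes did not overlap between the groups at either time. RILPL1, which binds Rab proteins, was at 1.93, 1.55, 2.14 and 1.94 with PMA-Ionomycin and 0.46, 0.16, -0.16 and -0.35 with mock at T4. RILPL1 with mock then reached 4.83, 3.32, 2.85 and 2.81 at T24, with 2.58, 1.66, 2.12 and 2.40 in the PMA-Ionomycin arm, whose mean was not lower than at T4. RIN3, an exchange factor for Rab5, was at 2.45, 2.08, 2.39 and 2.35 with PMA-Ionomycin and 1.41, 1.94, 1.71 and 1.25 with mock at T4, and at 2.02, 1.5, 2.04 and 1.44 and 3.69, 3.09, 3.1 and 3.19 at T24. RAB30, a Golgi GTPase, had the largest T4 difference of all 82 genes, 2.46, with -0.91 at T24. TMED10 (0.79 and -1.05), PTPN23 (0.75 and -0.71), BLTP2 (0.70 and -1.13) and ARL6IP1 (0.75 and -0.84) were the remaining ones. Of the 39 measured genes of the vesicle list, 14 were called higher and 6 lower at T4, and 4 higher and 16 lower at T24.

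CYP1B1, a cytochrome P450 that oxidises steroids and aromatic hydrocarbons, led the metabolic enzymes. CYP1B1 was at 2.05, 2.60, 2.21 and 1.63 with PMA-Ionomycin and 0.18, 0.90, 0.89 and 0.94 with mock at T4, and at 0.19, 0.56, -0.03 and -0.05 and 2.16, 1.32, 1.59 and 1.40 at T24. The groups did not overlap at either time. PNP, purine nucleoside phosphorylase, differed by 1.58 at T4 and -0.78 at T24, SGMS2, a sphingomyelin synthase, by 1.66 and -0.86, and PDPR, a regulator of pyruvate dehydrogenase phosphatase, by 0.74 and -0.85.

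Cell surface receptors and signalling proteins are given by their differences at T4 and T24. Among them were CD274 (0.88 and -1.15), which encodes the checkpoint ligand PD-L1, PTGER4 (0.82 and -2.21), the prostaglandin E2 receptor EP4, and GPR183 (2.26 and -0.75), an oxysterol receptor that guides lymphocytes. Tetraspanins other than CD9 were CD53 (0.70 and -1.37) and TSPAN14 (0.79 and -1.20). ALCAM (1.69 and -0.88) is a ligand of CD6. Of the kinases, LYN (1.14 and -1.24) is a Src family kinase of B and myeloid cells, MAP4K4 (1.15 and -1.55) and STK4 (1.44 and -0.75) are STE20 kinases, RPS6KA3 (1.16 and -0.86) acts below ERK, and PRKAG2 (0.81 and -1.37) is a subunit of AMPK. TAGAP (1.06 and -1.65) and TIAM1 (0.83 and -0.88) regulate small GTPases, and PEA15 (0.74 and -1.22) binds ERK.

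Transcription regulators outside the immediate early list were HLX (1.24 and -0.86), SATB1 (1.64 and -0.84), ID2 (0.72 and -1.31), RYBP (0.76 and -1.02), PELP1 (1.0 and -1.25), CIART (1.95 and -1.24), a repressor of the circadian clock, HES1 (1.10, and bounded at T24 as above), JMJD1C and PPARGC1B. PPARGC1B, a coactivator of mitochondrial genes, was at 0.34, 0.13, 0.34 and 0.65 with PMA-Ionomycin and -0.50, -0.27, -0.31 and -0.38 with mock at T4, near background, with a signal above it on 19 of the 24 arrays. PPARGC1B at T24 was 1.88, 1.68, 1.82 and 0.89 with PMA-Ionomycin and 2.99, 3.22, 3.24 and 2.12 with mock, so the means of both arms were higher than at T4. JMJD1C, a histone demethylase family member, measured 4.61, 4.93, 4.87 and 4.67 with PMA-Ionomycin and 4.30, 4.4, 3.81 and 3.31 with mock at T4, and 2.90, 2.88, 2.76 and 2.79 and 3.34, 3.63, 3.79 and 3.70 at T24. The RNA-binding EIF4E2 (0.76 and -0.89), RBM7 (0.73 and -0.84) and LARK (0.93 and -0.86) and the remaining CRYAA (1.08 and -1.03), SDF2 (0.94 and -0.80), FAM107B (2.25 and -0.77), FNDC3B (0.76 and -1.89) and GLIPR1 (0.72 and -2.15) were the others.

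TNFAIP6, which encodes the hyaluronan-binding protein TSG-6, stood apart from the rest by its change with time in both arms. TNFAIP6 at T4 was 9.26, 9.76, 9.14 and 8.06 with PMA-Ionomycin and 8.74, 9.01, 6.92 and 6.95 with mock. TNFAIP6 at T24 was 2.79, 2.74, 2.30 and 1.92 with PMA-Ionomycin and 4.79, 5.11, 3.67 and -0.70 with mock. The mean change from T4 to T24 was -6.62 with PMA-Ionomycin and -4.69 with mock, and rabbit 5 alone was higher with PMA-Ionomycin than with mock at T24.

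The change between T4 and T24 with LPS was the 1 comparison that shared no array with the rule, and it was tested (limma, 28895 genes, Benjamini-Hochberg adjustment). Of the 82 genes, 54 (65.9%) were called higher at LPS 24 h than at LPS 4 h, beside 16.7% of all genes tested and 26.9% of those with a symbol. Another 3 (3.66%) were called lower, beside 20.9% and 15.9%, and 25 were not called. The array of rabbit 4 at LPS 4 h had the smallest share of spots above background (51.4%, against up to 62.3% on other arrays). Without it, an alternative added after the data were seen, 48 were called higher and 2 lower. Within each of the 3 slides, which all held every group, the median difference of the 82 genes was 1.23, 1.41 and 0.77. Each of these values rests on 1 or 2 arrays per time and sets different rabbits against each other, so it also holds differences between rabbits. The median difference was 1.13 over the 82 genes, -0.19 over all genes and -0.05 over those with a symbol. In 59 genes all 4 rabbits were higher at T24, beside 32.0% of all genes with a symbol, and in 7 all 4 were lower, beside 28.4%. The arrays of the times did not overlap for 48 genes that were higher, beside 24.2%, and for 2 that were lower, beside 13.6%. For most of these genes the level with LPS was thus higher at T24 than at T4. The rule favours genes that rose with time in mock culture, as 66 of the 82 did in group means. The count with LPS is therefore not free of the choice of the genes, although it shares no array with the rule.

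**Figure D5:**
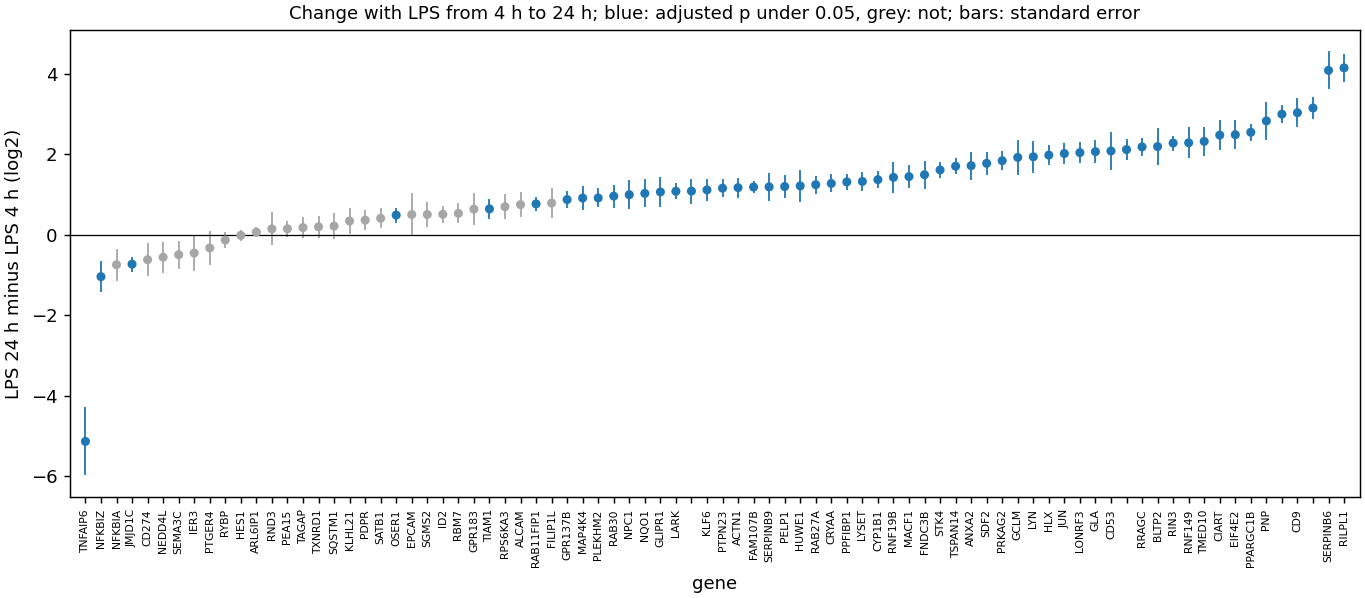
Difference LPS 24 h minus LPS 4 h (log2, points) with its standard error from limma (bars) for each of the 82 genes in ascending order (n = 4 per time). Blue marks an adjusted p under 0.05 over all genes (54 higher, 3 lower) and grey the other 25 genes.

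RILPL1, RIN3 and PPARGC1B were among the 5 genes with the smallest adjusted p of those called higher. RILPL1 went from -0.13, -0.26, -0.41 and -0.54 to 4.54, 3.27, 3.22 and 4.20, a difference of 4.14 (SE 0.35, adjusted p = 9.3e-09, limma), but only 2 of its 4 arrays at LPS 4 h were above background, so that the size of the difference is uncertain. Every RILPL1 array at T24 was above every array at T4.

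RIN3 was at 0.99, 0.96, 0.36 and 0.84 at LPS 4 h and at 3.21, 3.32, 2.80 and 2.92 at LPS 24 h (difference 2.27, SE 0.19, adjusted p = 7.3e-09, limma). PPARGC1B moved from -0.61, -0.41, -0.53 and -0.41, with 1 array above background, to 2.23, 2.32, 1.78 and 1.88 (difference 2.54, SE 0.22, adjusted p = 1.4e-08, limma). With only that array above background at LPS 4 h, the size of the PPARGC1B difference is uncertain. SERPINB6 was at 3.55, 1.82, 0.91 and 1.01 and 6.6, 6.05, 5.52 and 5.44 (difference 4.08, SE 0.47, adjusted p = 8.1e-07, limma). At T24 all its LPS arrays were far above the highest PMA-Ionomycin array.

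By role, all 7 lysosomal genes were called higher with LPS, as were 9 of 10 vesicle traffic genes, 4 of 6 ubiquitin ligases and adaptors, 3 of 4 redox genes and 4 of 10 genes of the cell surface and secreted group, beside 65.9% of the 82 genes and 26.9% of all genes with a symbol. The roles were assigned with the values known, the groups are small, and nothing particular to a role is read from these counts. The vesicle gene not called was ARL6IP1, whose mean of 0.06 joined opposed probes, the first at 1.16, which met the rule, and the other at -1.04. The lysosome list as a whole had 33 of 35 genes called higher, with a median of 2.25, the vesicle list 29 of 39 higher and 2 lower, and the NFE2L2 list 10 of 15 higher. Beside these counts and those of the markers below, 16.7% of all genes tested were called higher and 20.9% lower. Of the monocyte markers 17 of 23 were called higher and 1 lower, and their mean level went from 1.58 to 2.12 at LPS 4 h to 2.82 to 3.77 at LPS 24 h. CD14 was at 5.22 to 6.29 and then at 7.88 to 9.14. Markers of platelets went the other way, with 8 of 8 measured called lower. The part of these cell types in the change of the 82 genes was not tested.

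NPC1 was called higher with 0.99 (SE 0.36, adjusted p = 0.0348, limma), from 3.01, 2.83, 1.30 and 1.01 at LPS 4 h to 3.35, 3.17, 2.74 and 2.86 at LPS 24 h, but the call was lost when rabbit 4 or 5 was left out (adjusted p = 0.154 and 0.118). NQO1 was at 3.18, 2.96, 1.77 and 2.72 and 3.90, 3.54, 3.05 and 4.24, a difference of 1.02 (SE 0.35, adjusted p = 0.0263, limma), and its call was lost without any 1 of the 4 rabbits (adjusted p 0.0537 to 0.0688). Both calls were also lost with quantile normalization, with normexp, with the processed signal, with array weights and without the LPS 4 h array of rabbit 4, and that of NPC1 also when the 8 LPS arrays were fitted alone (0.0896). TXNRD1 (0.19, adjusted p = 0.580, limma) and SQSTM1 (0.21, adjusted p = 0.596, limma) were not called. Among immediate early genes JUN (2.01) and KLF6 (1.11) were called higher with LPS, with adjusted p = 5.7e-06 and 0.00328 (limma), and IER3 (-0.46, adjusted p = 0.395) was not called. The immediate early list as a whole had 3 of 22 genes called higher and 5 lower, with a median of -0.02, and the NF-kappaB list 3 of 16 higher and 3 lower. These shares were near the 16.7% higher and 20.9% lower of all genes tested.

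The 3 genes called lower were TNFAIP6, JMJD1C and NFKBIZ. TNFAIP6 fell from 8.66, 9.58, 8.41 and 6.96 at LPS 4 h to 3.38, 3.85, 2.61 and 3.21 at LPS 24 h, a difference of -5.14 (SE 0.84, adjusted p = 6.8e-05, limma). JMJD1C was at 4.01, 4.25, 3.85 and 3.53 and 3.04, 3.15, 3.01 and 3.50 (difference -0.74, SE 0.19, adjusted p = 0.00458, limma), with no overlap. NFKBIZ was at 5.50, 5.84, 5.28 and 3.86 and 4.83, 4.59, 3.14 and 3.73 (difference -1.05, SE 0.38, adjusted p = 0.0356, limma), with overlapping arrays but a fall in all 4 rabbits, and its call was lost without rabbit 1, 2 or 4 (adjusted p = 0.0656, 0.126 and 0.196) and when the 8 LPS arrays were fitted alone (0.0968) or the LPS 4 h array of rabbit 4 was left out (0.0828). NFKBIA was also lower at T24 in all 4 rabbits, at 11.01, 11.71, 10.80 and 9.84 and then 10.14, 10.69, 10.11 and 9.43, and did not pass the test (-0.75, adjusted p = 0.129, limma), though it did with the rabbit as a block (adjusted p = 0.030), with the processed signal (0.0364), with array weights (0.0397) and without rabbit 5 (0.0235). The T4 level of NFKBIZ and NFKBIA with LPS was above that of mock on average, by 1.38 and 0.67.

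LPS and mock at the same time share the mock arrays with the rule, so their differences are given without a test. At T4, 73 of the 82 genes were lower in group means with LPS than with mock and 9 (11%) were higher, beside 48.3% higher of all genes with a symbol (median -0.29, beside -0.01), but only 5 of those lower had arrays that did not overlap, beside 9.26%. At T24, 53 (64.6%) were higher with LPS, beside 50% (median 0.22). The mean level of the monocyte markers at T4 was 1.58 to 2.12 with LPS and 2.03 to 2.77 with mock, and CD14 was at 5.22 to 6.29 and 6.92 to 8.06, without overlap. Their part in the levels of the 82 genes was not tested. At T4 all 4 rabbits were lower with LPS in 18 genes, a share near the 20.4% of all genes with a symbol, and higher in 3, beside 7.58%. At T24 all 4 were higher in 33 genes, beside 17.0%, and lower in 14, beside 10.0%. In 10 genes all 4 were lower at T4 and higher at T24, beside 6.58%. At T24 the arrays of LPS and mock did not overlap for 5 genes that were higher, beside 3.40%, and for 6 that were lower, beside 2.10%. The largest values above mock at T24 were in CD53 (1.75), PNP (1.44) and IER3 (1.35), and values below mock were found in RND3 (-1.97) and ALCAM (-1.36), all 5 above background on every array. RND3 was at 1.10, 1.76, 1.30 and 0.74 at LPS 4 h and 1.82, 1.91, 1.53 and 0.19 at LPS 24 h, so that at T24 its LPS arrays lay below the mock arrays in every rabbit, as its PMA-Ionomycin arrays did.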

How the data were processed

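The authors deposited one Agilent scanner file per array, extracted with Agilent Feature Extraction 10.7.3.1 per the submitters' processing notes, with spot brightness as intensity, and log2 values of all arrays in one table. Per the file headers, positions are on oryCun2. From each file the median spot intensity was taken on the log2 scale, and each array was shifted so that its median spot, controls aside, lay at 0. Outlier spots were left out, and spots were averaged per probe and probes per gene. Of 42089 probes, 11484 were named by accession, 8929 by gene number, 66 by gene name and 439 through a table of added genes, while 21149 had no symbol and 22 had several. No array of another series was present.

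The 24 arrays were fitted with 6 group means in limma 3.58.1 (R 4.3.3, data.table, version 1.17.8), with Benjamini-Hochberg adjustment over 28895 genes and a threshold of 0.05. Tables and plots used Python 3.11.15, pandas 2.3.3 and matplotlib 3.10.9. The 82 genes and the gene lists were chosen with earlier results of these data known. Values in every array are given for the 12 genes with the largest turn, up to 5 called higher and 5 called lower between the LPS times by smallest adjusted p, and the genes on a list. Same-numbered cultures came from the same rabbit, which the deviations from group means bear out (median correlation 0.23 over 60 pairs of the same rabbit, -0.08 over 180 pairs of different rabbits). Alternatives were other background corrections and scalings, the deposited log2 table, a filter on dim probes, outlier spots kept, a block for rabbit or for slide, weights per array, other limits of the rule, only the 8 LPS arrays, and leaving out each rabbit. Tested on simulated data for LPS 24 h minus LPS 4 h with 28779 genes, the fit recovered 97% of 200 changed genes, and 6.73% of its calls were false. The planted changes were all larger than 1.13, the median LPS change of the 82 genes, and the simulated arrays were independent of each other. The share recovered therefore does not carry over to smaller changes or to cultures that share a rabbit. Promoter motifs were not analysed here, and the values of some of the 82 genes are not reported here, although every count includes them. The number of arrays limits the precision.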

Additional observations from a re-analysis of the deposited data

Results flagged for a closer look

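In 198 groups of 4 arrays of the 32 genes named by rule and of the mean of the 82 genes, 5 groups held 1 array far from the others, by the gap to its neighbour over the range of the group, past Dixon's critical value. Chance gives about 1 such group in 20, so 5 of 198 is no more than chance gives, and no array is called an outlier here. RND3 with PMA-Ionomycin at T4 had a ratio of 0.865, with rabbit 5 at 2.66 and the others from 4.05 to 4.26. NQO1 in the same group had a ratio of 0.85, with rabbit 5 at 4.19 and the others from 5.75 to 6.03. CYP1B1 with mock at T4 had a ratio of 0.929, with rabbit 1 at 0.18 and the others from 0.89 to 0.94. ANXA2 with mock at T4 had a ratio of 0.847, with rabbit 1 at 6.97 and the others from 7.67 to 7.80. GCLM at LPS 4 h had a ratio of 0.836, with rabbit 5 at 2.04 and the others from 3.13 to 3.34.

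In 10 of the 82 genes all 4 rabbits were lower with LPS than with mock at T4 and higher at T24, beside 6.58% of all genes with a symbol. The mean differences at T4 and T24 were -0.87 and 0.452 in RRAGC, -0.81 and 0.688 in GCLM, and -0.72 and 0.141 in ACTN1. Others were HLX, LARK, TSPAN14, FNDC3B and STK4. The difference between the times was not tested, because the mock arrays also chose the genes.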

How the results depend on the processing

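With limits of 0.5 and 1 in place of 0.7 the rule met 145 and 28 genes, of which 95 and 19 were called higher and 5 and 1 lower between the LPS times, and with array weights 5 were called lower. The processed signal scaled to the 75th percentile gave 222 genes, 73 of them among the 82, quantile normalization 76 (59 among the 82), normexp with quantile normalization 60 (49) and the deposited values 77 (63). Without 1 rabbit the rule met 58 to 99 genes, and 47 to 50 of the 82 were called higher and 2 to 4 lower with LPS. With the rabbit as a block, 57 were called higher and 4 lower, and of the 32 genes named by rule NFKBIA alone changed its call. The median LPS change of all genes moved from -0.19 to -0.46 with the processed signal, with 14.0% called higher and 29.4% lower, and to -0.03 with quantile normalization, where that of the 82 genes was 1.13 and 0.95.

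Of the LPS changes, 3 that were not called changed sign. RND3 was at -0.0842 with quantile normalization, -0.17 with the processed signal, -0.0661 with normexp, and from -0.0545 (without rabbit 1) to 0.37 with 1 rabbit left out. SQSTM1 was at -0.0323 with quantile normalization, -0.0128 with normexp, -0.15 with array weights, from -0.0660 (without rabbit 4) to 0.51 with 1 rabbit left out, and at -0.19 without the LPS 4 h array of rabbit 4. TXNRD1 was at -0.17 with the processed signal and -0.0551 with array weights. The cause was not tested. Of the 64 PMA-Ionomycin differences of the 32 genes, whose signs the choice of the genes largely fixed, 23 moved by more than the spread between replicates with the processed signal, 10 with quantile normalization, 10 with normexp and 3 with the deposited values. HES1, EPCAM, RPS6KA3, SEMA3C, PPARGC1B, PPFIBP1, TIAM1, CIART, HLX, CRYAA, RILPL1, KLHL21, TSPAN14 and STK4 were not above background on all 24 arrays.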
